A study of Mus musculus with 5 samples.

Results

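Translation initiation factors are the proteins that bring the initiator tRNA, the messenger RNA and the ribosomal subunits together at a start codon. The genes described here were taken by name, as every probe set whose single gene symbol in the platform's annotation starts with Eif1 to Eif6, leaving out the kinases of the Eif2ak series and the binding proteins of the Eif4ebp series. This gave 112 of 45037 probe sets, which stand for 41 of 18193 genes. No probe set had Eif1, the eIF2 subunit gene Eif2s1 or the eIF4F scaffold gene Eif4g1 as its single symbol. These genes are therefore not among the 41, and the groups of factors below are not complete. The rule itself uses no measured value, though it was set with earlier results of these data known. The probe set with the highest mean signal stands for each gene, and 39 of the 41 were above the lowest level used here, a signal of 43.4, on every array. The other two, Eif4a3 and the Y-linked Eif2s3y, lay under it on all 5 arrays, with highest signals of 24.3 and 9.77, and were not compared. Of the 41 genes, 31 had several probe sets, up to 6 for Eif2s2, Eif2d and Eif4h, and 10 had 1.

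RNA of splenic CD4 T cells (strain BALB/c) was hybridised to 5 Affymetrix arrays, 1 for each sample, with median signals of 63.1 to 99.5 as deposited. These were naive cells, memory Th1 cells, and 3 cultured effector populations labelled "Control effector Th1 cells", "Rap effecrot Th1 cells" and "TOFA effector Th1 cells". Per the labels, culture lasted 5 days in the presence of IL-2 at 15 ng/ml and IL-12 at 10 ng/ml. That text is attached to all 5 samples, while only the source of the effector samples is described as cultured. The compound TOFA inhibits acetyl-CoA carboxylase, the first committed enzyme of fatty acid synthesis. For the agent behind the label Rap, the doses, the age and number of mice and the origin of the memory cells, nothing is stated in the labels used here. There was no replicate in any group, so no test between groups was made, no error between cultures can be given, and every fold describes these 5 arrays only.

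In outline, the factor eIF2 carries the initiator tRNA to the small ribosomal subunit, and its exchange factor eIF2B recharges it with GTP after each round. The complex eIF3 is a scaffold on the small subunit, and eIF1, eIF1A and eIF5 act while that subunit scans for the start codon. The cap of the messenger RNA is bound by eIF4F, which joins the cap-binding protein eIF4E, the RNA helicase eIF4A and the scaffold eIF4G. T cells that leave the resting state raise their protein synthesis, and this machinery is a known point of control through mTOR, which acts on the eIF4E-binding proteins, and through kinases that phosphorylate eIF2.

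Promoter sequences of 33 of the 41 genes were available in RefSeq's table for build GRCm38.p6, as 45 windows of 300 bases that run from 250 before to 50 after an annotated start. Shown here are those of the genes with opposite courses between resting and effector arrays described next, Eif4a1 and Eif4e (higher in effector cells) and Eif4a2 and Eif5 (lower). Capitals mark the E-box CACGTG, the core site of MYC-type factors, which is the same on both strands. For Eif4e the window with a match is shown and the other is not.
Eif4a1, chr11:69672374-69672673, minus strand: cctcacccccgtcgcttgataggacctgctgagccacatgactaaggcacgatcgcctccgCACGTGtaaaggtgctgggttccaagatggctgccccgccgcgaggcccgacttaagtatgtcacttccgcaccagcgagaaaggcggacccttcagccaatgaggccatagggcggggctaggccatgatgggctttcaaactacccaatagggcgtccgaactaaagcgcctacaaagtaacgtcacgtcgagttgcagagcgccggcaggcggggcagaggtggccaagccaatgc
Eif4e, chr3:138527018-138527317, plus strand: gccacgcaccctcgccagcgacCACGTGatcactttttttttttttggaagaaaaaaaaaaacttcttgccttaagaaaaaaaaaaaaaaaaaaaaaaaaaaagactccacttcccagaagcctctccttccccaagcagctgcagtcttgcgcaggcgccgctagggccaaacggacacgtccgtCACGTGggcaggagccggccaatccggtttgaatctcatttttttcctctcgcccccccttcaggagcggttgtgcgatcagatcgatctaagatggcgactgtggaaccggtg
Eif4a2, chr16:23107218-23107517, plus strand: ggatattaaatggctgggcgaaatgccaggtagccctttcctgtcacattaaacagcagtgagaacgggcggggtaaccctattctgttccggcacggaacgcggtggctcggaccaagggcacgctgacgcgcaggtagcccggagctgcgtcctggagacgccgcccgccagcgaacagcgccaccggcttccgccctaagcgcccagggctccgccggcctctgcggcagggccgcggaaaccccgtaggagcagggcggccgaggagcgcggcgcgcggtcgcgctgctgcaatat
Eif5, chr12:111537851-111538150, plus strand: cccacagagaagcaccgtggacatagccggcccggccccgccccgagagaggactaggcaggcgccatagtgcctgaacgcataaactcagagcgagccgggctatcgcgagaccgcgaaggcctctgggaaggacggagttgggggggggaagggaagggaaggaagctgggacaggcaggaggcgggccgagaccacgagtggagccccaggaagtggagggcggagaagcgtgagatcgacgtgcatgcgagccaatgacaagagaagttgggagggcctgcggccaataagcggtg
The E-box of Eif4a1 began 189 bases before the start, and Eif4e had a pair of them, 228 and 64 bases before it. No E-box was present in the printed letters of Eif4a2 or Eif5. The windows of Eif2s2 and Eif3c, which were also higher in effector cells, had none either and are not shown. Over all 33 genes, 9 (27.3%) had an E-box in a window, against 8.09% of the 27025 genes in the table. They were Eif1b, Eif3a, Eif3f, Eif3k, Eif4a1, Eif4e, Eif4h, Eif5a and Eif5a2. The 27025 genes include some that were not measured here, and no share over measured genes alone was worked out. The cyclic AMP response element TGACGTCA, also the same on both strands, was found in 0 of 33 against 2.03% of all genes. The core TGATGCAA of the composite site of ATF4 and C/EBP factors, searched on both strands, was found in 0 of 33 against 1.03%.

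The division between cultured and resting cells ran through most of the set. In 24 of 39 initiation factor genes (61.5%) all 3 effector arrays lay above both the naive and the memory array, a pattern that 25.3% of all 14406 genes showed. Those 14406 were above the floor on at least 1 array, while all 39 read at least 278 on every array. No share over brighter genes alone was worked out. The opposite pattern, all 3 effector arrays below both resting arrays, was found in 3 of 39, namely Eif4a2, Eif5 and Eif4g3, against 21% of all genes. Among genes with an E-box in a promoter window 6 of 9 were of the first kind, and among the measured genes whose windows had none it was 15 of 22. The 12 genes with neither pattern included 5 subunits of eIF3 (Eif3a, Eif3e, Eif3h, Eif3i and Eif3k), 3 of eIF2B (Eif2b2, Eif2b3 and Eif2b4), and Eif1b, Eif4b, Eif4g2 and Eif5b. These patterns were read on the brightest probe set of each gene. On every other probe set of Eif3a, all 3 effector arrays lay above both resting arrays.

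**Figure D1:**
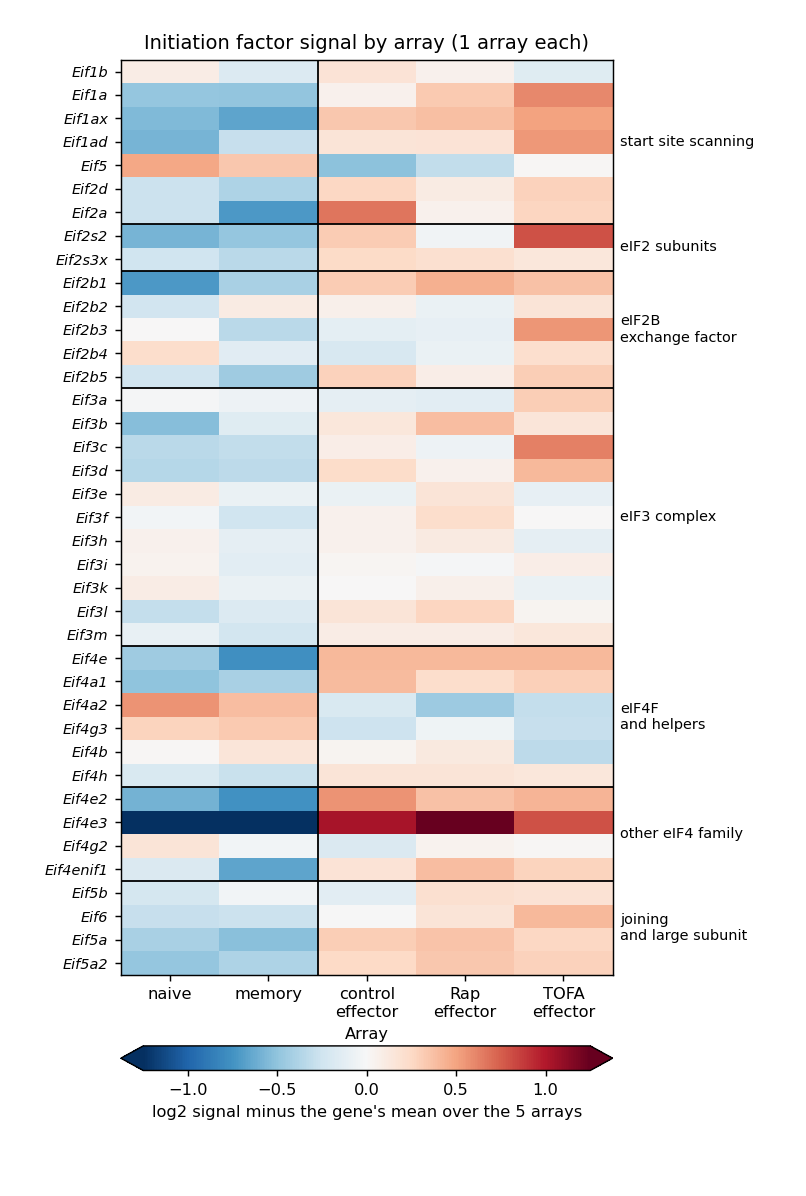
Signal of the 39 measured initiation factor genes (rows, grouped by role) on each of the 5 arrays (columns), as the log2 signal minus that gene's mean over the arrays, with colours ending at the limits of the scale. Most rows are blue in the naive and memory columns and red in the effector columns, Eif4e3 most of all, while Eif5, Eif4a2 and Eif4g3 run the other way.

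Against naive cells, the control effector array asked how the initiation machinery differed after Th1 culture. At least 1.5-fold higher were 12 of 39 genes (30.8%), a share near the 26.2% of all 13062 genes compared and the 29.1% of well-measured genes. They included the cap-binding genes Eif4e, Eif4e2 and Eif4e3, the helicase gene Eif4a1 and the eIF2 subunit gene Eif2s2. At least 1.5-fold lower were Eif5 and Eif4a2 (5.13%), against 22.2% of all genes. Only 3 were 2-fold apart or more (7.69%), against 27.2% of all genes and 32.9% of the 9439 well-measured genes, those with a signal of at least 150 in either array, a level that all 39 reached on every array. The median over the 39 was 0.36 on the log2 scale, and 29 of 39 lay above 0, while the median over all genes was 0.03. With each gene given by the average of its probe sets it was 0.19 over the initiation factors, against 0.01. Without regard to direction, the typical difference was smaller than that of other well-measured genes, with a median size of 0.49 against 0.65. The SD between probe sets of the same initiation factor gene, the only internal measure of error, was 0.54 in this comparison.

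The cap-binding family held the largest difference of the set. Eif4e3, a relative of eIF4E, had signals of 565 in naive and 728 in memory cells, and of 4123, 5674 and 3500.4 in control, Rap and TOFA effector cells. The effector arrays therefore stood apart from the resting ones, and the nearest pair was 4.81-fold apart. Between naive and control effector cells the difference was 7.29-fold. Its other probe set gave 2.79 on the log2 scale where the brighter one gave 2.87.

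Eif4e itself, the cap-binding subunit of eIF4F, read 2513 in naive and 2014 in memory cells and between 4528 and 4531 on all 3 effector arrays. Control effector cells exceeded naive cells 1.8-fold, and the 3 other probe sets were higher as well, by 0.32 (in naive cells under the floor) to 1.76 on the log2 scale. Eif4e2, whose product binds the cap and represses translation, read 1410.5 and 1261 in naive and memory cells and 3150.5, 2743 and 2853.5 in control, Rap and TOFA effector cells. Control effector cells were 2.23-fold above naive cells. The probe sets of Eif4e2 were divided. The next brightest gave 1.04, while a dimmer one, at 511 in naive and 216 in control effector cells, gave -1.24, and the mean over all of its probe sets was 0.09.

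The helicase genes of eIF4F went in opposite directions. Eif4a1 had signals of 11314 in naive and 12092 in memory cells and of 20992, 18648 and 19652 in control, Rap and TOFA effector cells. Eif4a2, which encodes a close relative with the same activity, had 24478 and 21667 in the resting cells and 14512, 12153 and 13514 in the effector cells. No effector array overlapped with a resting array for either gene. Control effector cells were 1.86-fold higher than naive cells for Eif4a1 and 1.69-fold lower for Eif4a2. All 3 probe sets of Eif4a1 were higher, by 0.60 to 1.32 on the log2 scale, and Eif4a2 had only 1.

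Neither measured scaffold gene of the eIF4 family was 1.5-fold apart between naive and control effector cells. Eif4g3, a scaffold subunit of eIF4F, read 2359 and 2443 in naive and memory cells and 1620.3, 1870 and 1590.3 in control, Rap and TOFA effector cells, a difference of -0.54 for control effector against naive, while a dimmer probe set gave 0.24. Eif4g2, whose product lacks the eIF4E-binding part of the other scaffolds, read 25281 in naive and 19852 in control effector cells on its brightest probe set, a difference of -0.35 on the log2 scale. All 4 of its other probe sets were lower too, at -0.43, -0.72, -1.62 and -2.42, the first and the last of these with control effector signals under the floor. The helicase helpers Eif4b and Eif4h differed by 0.02 and 0.35. Eif4enif1, which carries eIF4E into the nucleus, differed by 0.36.

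**Figure D2:**
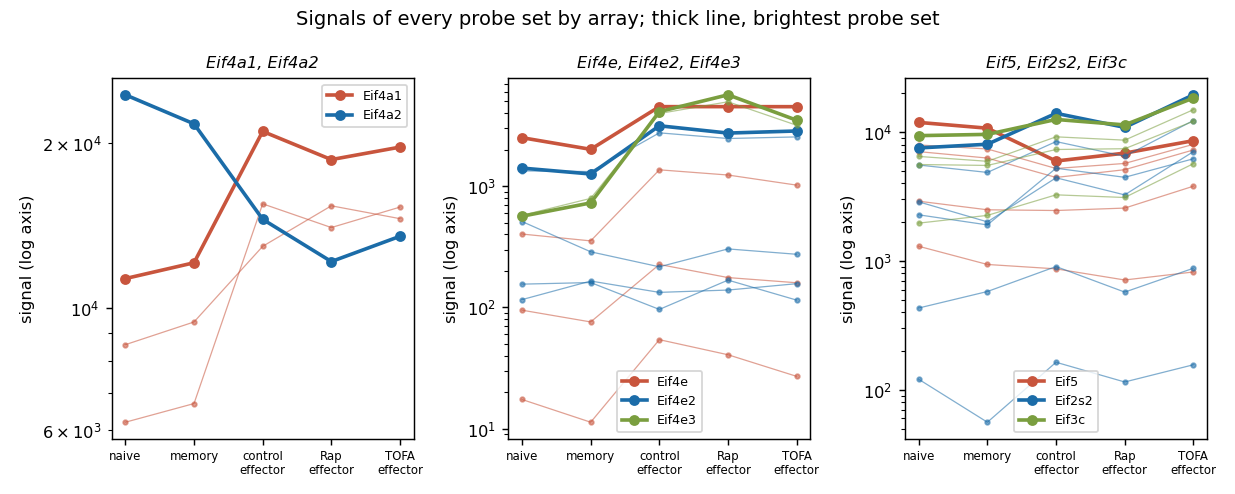
Signal on a log axis of every probe set above the floor on at least 1 array, for the eIF4A genes (left), the eIF4E family (middle) and Eif5, Eif2s2 and Eif3c (right), with arrays on the horizontal axis and the brightest probe set of each gene as a thick line. Eif4a1 and Eif4a2 cross between the resting and the effector arrays, and both probe sets of Eif4e3 are higher on the 3 effector arrays.

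Among the factors that work during scanning, Eif5 had a course of its own. Its product makes eIF2 hydrolyse its GTP at the start codon. Signals were 11871 in naive, 10704 in memory, 5955 in control effector, 6857 in Rap and 8566 in TOFA cells, so on this brightest probe set the resting arrays were both above all effector arrays. On 3 of the 4 other probe sets the TOFA array was above both resting arrays, by a margin as small as 8027 against 7935 in naive cells and as large as 3798 against 2906. Eif5 was 1.99-fold lower in control effector than in naive cells, and all 4 of its other probe sets were lower, by 0.24 to 0.67 on the log2 scale. The eIF1A gene Eif1ax read 3150 in naive and 2936 in memory cells and 5836 to 6557 in effector cells, and the control effector value was 1.85-fold the naive one. Its 2 dimmer probe sets gave -0.30 and -0.58. Eif1ad, an eIF1A-domain gene, was 1.67-fold higher, Eif1a differed by 0.54 on the log2 scale, and Eif1b by 0.08. The other probe set gave 0.33 for Eif1ad and 0.83 for Eif1a. By the mean of its probe sets Eif1ad was under 1.5-fold (0.54) and Eif1a past it (0.69). Eif2a, an alternative carrier of initiator tRNA that is no subunit of eIF2, read 961 in naive, 702 in memory and 1833 in control effector cells, a 1.91-fold difference from naive. Eif2d, another such carrier, differed by 0.53.

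Genes of eIF2 and eIF2B were higher in part. Eif2s2, the beta subunit of eIF2, read 7525 in naive, 8037 in memory and 13964 in control effector cells. Control effector cells were 1.86-fold above naive cells, with all 5 other probe sets higher by 0.44 to 1.20 on the log2 scale. Eif2s3x, the gamma subunit, read 7637 in naive, 7173 in memory and 9981 to 10712.5 in effector cells, a difference of 0.49 for control effector. Its other probe sets gave 0.44 and, at lower signals, 1.19. Eif2s3x was past 1.5-fold by the mean of its probe sets (0.71) and with the deposited signals (0.74). Of the eIF2B genes, Eif2b1, which encodes its regulatory alpha subunit, was 2.04-fold higher in control effector cells (855 against 419). Eif2b5, the catalytic epsilon subunit, differed by 0.52, Eif2b2 by 0.31, Eif2b3 by -0.13 and Eif2b4 by -0.42.

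Grouped by role, the 11 measured eIF3 subunits differed least between control effector and naive cells, with a median size of 0.19 on the log2 scale. In TOFA against Rap cells their median size of 0.23 was not the smallest, with 0.21 over all 39 genes. Their median difference between control effector and naive cells was 0.08, with 7 above 0 and 4 below. On the brightest probe sets only Eif3b, part of the core of the complex, was past 1.5-fold there (1.59-fold higher, 2668 against 1678). The next were Eif3d at 0.58, Eif3l at 0.46 and Eif3c at 0.42. Other probe sets gave 0.39, 0.50 and 0.73 for Eif3c, and 0.61 and -0.31 at dim signals for Eif3l. Eif3a was at -0.10 on its brightest probe set but at 0.19, 0.59 and 0.78 on the others. At the other end, Eif3k ranged over 1.13-fold across all 5 arrays, Eif3i over 1.16-fold, Eif3h over 1.17-fold and Eif3e over 1.21-fold. Eif3f, with signals between 18265 and 25150.0, ranged over 1.38-fold. Eif3m read 4378 to 5661 on its brightest probe set, while a dim one of the same gene, under the floor on 3 arrays, gave -1.96.

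Of the late-acting factors, Eif5a, whose product carries the modified amino acid hypusine and helps the ribosome form difficult peptide bonds, was the brightest gene of the set. It read 19981 in naive and 18454.5 in memory cells and 32684, 33922.5 and 31752 in control, Rap and TOFA effector cells. Control effector cells were 1.64-fold above naive cells, or 1.60 on the log2 scale on its other probe set. Its relative Eif5a2 was 1.66-fold higher at low signals (460 against 278), with a dimmer probe set at -0.16. Eif6, which keeps the large subunit from joining too early, differed by 0.29, and Eif5b, the GTPase of subunit joining, by 0.08.

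TOFA effector cells were set against control effector cells to see whether an acetyl-CoA carboxylase inhibitor went with another initiation factor profile. Most of the set lay close to control. None of the 39 genes was 2-fold apart, against 4.61% of all 12850 genes. Eif2b3, the gamma subunit of eIF2B, was the 1 gene at least 1.5-fold higher (2.56%), against 8.58% of all genes, and none was 1.5-fold lower, against 8.15%. The median was 0.03, as 22 lay above 0 and 17 below, and the median size of 0.13 compares with 0.22 for well-measured genes. The SD between probe sets of the same initiation factor gene was 0.35.

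Eif2b3 read 518 in naive, 409 in memory, 474 in control, 482 in Rap and 759 in TOFA cells, and so was 1.60-fold higher in TOFA than in control cells, on its only probe set. The other 4 eIF2B genes were between 0.03 and 0.41 above control on the log2 scale. Eif3c, part of the eIF3 core, had 18344 in TOFA cells against 12514.5 in control and 11352 in Rap cells, a difference of 0.55. Its 3 other probe sets gave 0.70, 0.73 and 0.80, all past 1.5-fold, so that Eif3c was past it by the mean of its probe sets (0.70). Eif3a, also part of that core, differed by 0.42 on its brightest probe set and by 0.07 to 0.24 on the others.

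A further 3 genes lay just under 1.5-fold in TOFA cells. Eif1a read 2414.5 against 1654 (0.55), Eif5 8566 against 5955 (0.52) and Eif2s2 19434 against 13964 (0.48). For Eif5, 3 of the other probe sets gave 0.62 to 0.71 and the dimmest gave -0.08. For Eif2s2, the 5 others lay between -0.07 and 0.67. The TOFA signal of Eif5 was between those of the control effector and the resting cells on its brightest probe set and above the resting cells on the 3 probe sets named above. That of Eif2s2 was the highest of the 5 arrays on its brightest probe set. Eif6 and Eif2b4 both differed by 0.41 and Eif1ad by 0.38. On the lower side were Eif2a (-0.40), Eif4b (-0.36, and -0.42 and -0.44 on its other probe sets) and Eif1b (-0.33). On the brightest probe sets none of the 6 genes of eIF4F and its helpers lay above 0, with a median of -0.06 and none past 1.5-fold. Of all 12850 genes compared, 6248 lay below 0. Eif4h and Eif4g3 were only at -0.02 and -0.03, and with the deposited signals Eif4g3 read 1603.4 against 1602.3. Eif4e read 4528 against 4531 on its brightest probe set and gave -0.32, -0.42 and -0.50 on the others. Eif4a1 and Eif4a2 were both at -0.10, and the other probe sets of Eif4a1 gave -0.02 and 0.17. Those of Eif4h lay between -0.28 and 0.19. For Eif4g3 the other probe sets that could be compared gave -0.23 and 0.56, the latter with a control signal under the floor. Eif4e3 was at -0.24.

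The Rap effector array was compared with the same control array, so the values below and those for TOFA share it. Initiation factors were again close to control. No gene was 2-fold apart, against 5.7% of all 12839 genes, none was 1.5-fold higher, against 7.71%, and 1 was 1.5-fold lower, against 10.9%. That gene was Eif2a, at 1204 against 1833, a 1.52-fold difference, though its other probe set gave 0.04. The median was 0.05 and the median size 0.15, against 0.23 for well-measured genes. Furthest higher were Eif4e3 (0.46, and 0.32 on its other probe set) and Eif5b (0.33). The other probe sets of Eif5b were divided, with 0.26 on the next brightest and -1.13 on the dimmest (65.9 against 144.5). Furthest lower after Eif2a were Eif2s2 at -0.36, with its 5 other probe sets between -0.23 and -0.66, and Eif4a2 at -0.26. The SD between probe sets was 0.30.

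**Figure D3:**
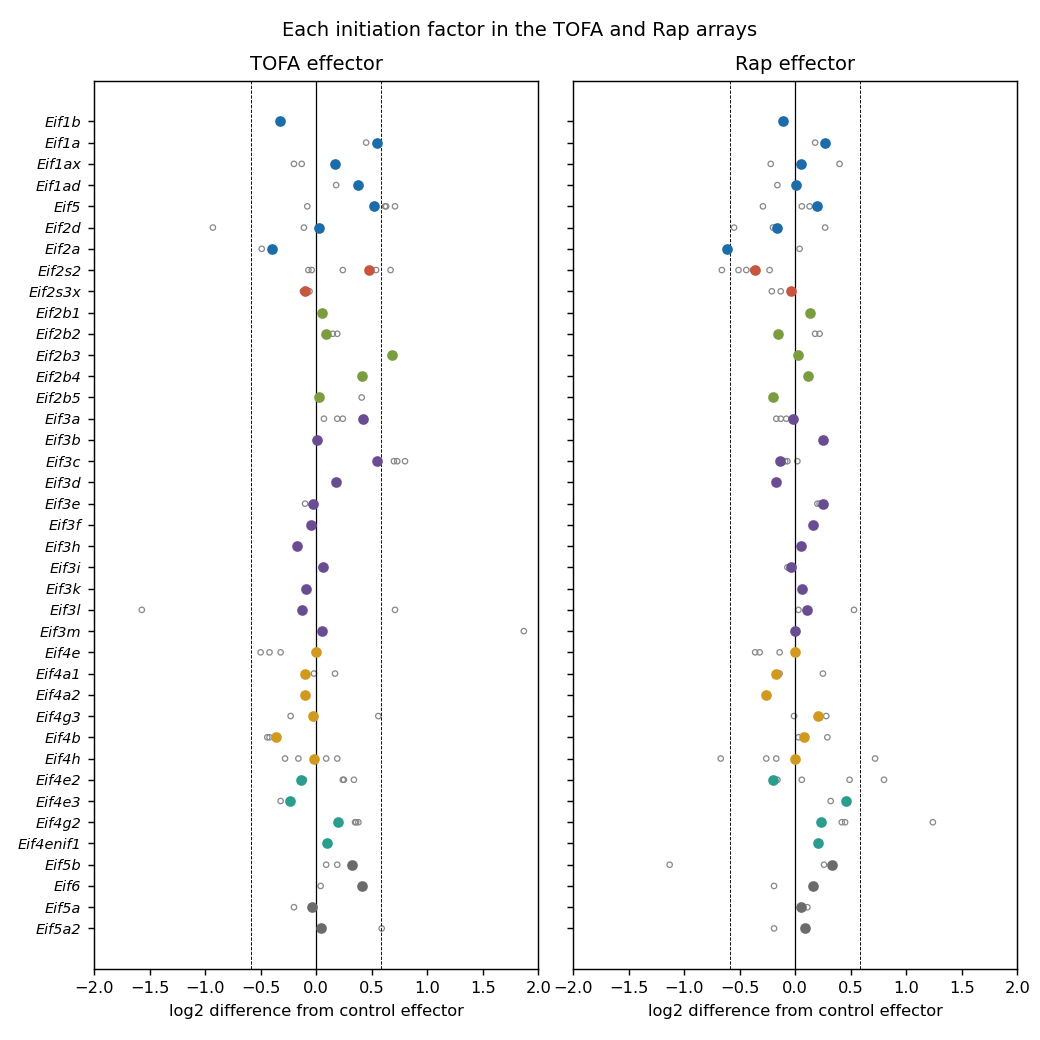
Difference of the TOFA (left) and Rap (right) effector arrays from the control effector array on the log2 scale for each measured initiation factor gene, with the brightest probe set as a filled point coloured by role, the other probe sets as open points and 1.5-fold as dashed lines. Only Eif2b3 in TOFA and Eif2a in Rap cells have a filled point past a dashed line, and all probe sets of Eif3c lie to the right in TOFA cells.

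A direct comparison of the TOFA with the Rap array separated 4 genes at 1.5-fold and none at 2-fold, where 4.59% of all 12783 genes were. Higher in TOFA cells were Eif2s2 (19434 against 10864, 1.79-fold), Eif3c (18344 against 11352, 1.62-fold) and Eif2b3 (759 against 482, 1.58-fold), against 9.79% of all genes. Lower was Eif4e3 (3500.4 against 5674, 1.62-fold), against 6.16%. The other probe sets of these genes went the same way in every case, 5 of 5 for Eif2s2 (0.44 to 1.12 on the log2 scale), 3 of 3 for Eif3c (0.71 to 0.87) and 1 of 1 for Eif4e3 (-0.64). For Eif2b3 there was no other. Next in size were Eif4b, at -0.45 and with -0.47 and -0.72 on its other probe sets, and Eif3a at 0.44.

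Memory cells lay close to naive cells in this set. None of the 39 genes was 2-fold apart, while 16.4% of all 13014 genes and 18.2% of those with a signal of at least 150 were. None was 1.5-fold higher or lower either, against 19.2% and 14.2% of all genes. The largest differences were Eif4enif1 at -0.47, Eif2a at -0.45, Eif3b at 0.38 and Eif4e3 at 0.37 on the log2 scale. The median was -0.10 and the median size 0.16, against 0.37 for well-measured genes. With all probe sets of a gene averaged, 1 gene was 2-fold lower, Eif3m at -1.05, through the dim probe set mentioned above.

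Against control effector cells, memory cells showed much the reverse of the naive comparison, with which they share the control array. At least 1.5-fold lower were 13 of 39 genes (33.3%), against 24.6% of all 13239 genes, and 2 were at least 1.5-fold higher, against 23.7%. Past 2-fold were 4 genes (10.3%), against 28.3%, and all of these were lower in memory cells. With the deposited signals 7 genes were past 2-fold. The 4 were Eif4e3 (5.66-fold), Eif2a (2.61-fold), Eif4e2 (2.5-fold) and Eif4e (2.25-fold). Eif1ax was 1.99-fold, Eif4enif1 1.78-fold, Eif5a 1.77-fold, and Eif4a1 and Eif2s2 both 1.74-fold lower. For Eif4e2 3 of the 4 other probe sets were higher in memory cells (0.31 to 0.74 on the log2 scale), and for Eif1ax the 2 others gave -0.16 and -0.18. With all probe sets averaged both were under 1.5-fold, at -0.18 for Eif4e2 and -0.44 for Eif1ax. Higher were Eif5 (1.8-fold) and Eif4g3 (1.51-fold), and both were under 1.5-fold when the deposited signals were used (0.56 each on the log2 scale). None of the 4 other probe sets of Eif5 reached 1.5-fold (0.02 to 0.50, and 0.40 for the mean of all). For Eif4g3 the other probe set above the floor in both arrays gave -0.78, and the mean of all probe sets turned the direction, to -0.05. Without normalization between arrays the median over all genes in this comparison moved by 0.20, to 0.17, and the split of all genes at 1.5-fold from 3136 higher and 3258 lower to 4264 and 2588. For memory against naive it moved from 2495 and 1845 to 3138 and 1370.

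**Figure D4:**
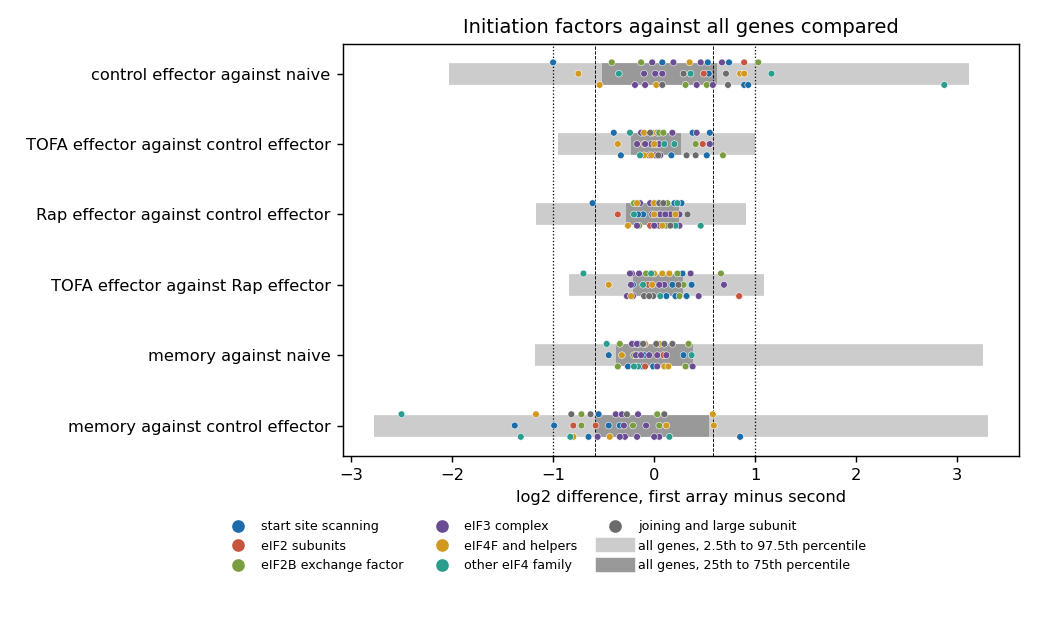
Differences of the 39 initiation factor genes (points, coloured by role) in the 6 comparisons on the log2 scale, over bars for all genes compared, with 1.5-fold as dashed and 2-fold as dotted lines. All points lie within the light bars, which leave out the most extreme genes at both ends. They are shifted to the right for control effector against naive and to the left for memory against control effector, and stay inside the dashed lines for memory against naive.

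Other cell types contributed unequally to the resting arrays. T cell markers were above the floor on all arrays (5 of 7 listed were on the array, among them Cd3d at 14083 to 21591 and Cd4 at 483 to 897). The summed signal of 6 of 7 listed B cell markers was 38394 in naive and 54325 in memory cells and 1742 to 2385 in effector cells. There Cd79a was under the floor on all 3 arrays, while Ighm read 1352 to 1814. In control, Rap and TOFA effector cells 2, 1 and 3 of these 6 were under it. For 7 of 7 myeloid markers the sum was 5662 in naive, 43494 in memory and 223 to 323 in effector cells. In control, Rap and TOFA effector cells 5, 6 and 4 of the 7 were under the floor, among them Lyz2, S100a8 and S100a9 on all 3 arrays. Csf1r read 84, 98.6 and 125.9 there against 96.3 in naive cells, and Cd14 was above the floor in TOFA cells (74.4). Dendritic markers (4 of 4) summed to 1049 in memory and 80.2 to 159 elsewhere, NK markers (2 of 3) to 3402.5 and 290.1 to 738, CD8 genes (2 of 2) to 1072 and 317 to 703, and erythroid genes (2 of 4) to 690.5 and 6.8 to 51.1. The part of these cells in the differences between resting and effector arrays was not tested. Within the effector arrays, the naive markers Ccr7, Lef1 and Klf2 summed to 8320 to 12951, and the Th1 and division markers Ifng, Tbx21, Gzmb, Il2ra and Mki67 to 39072 to 55256, against 1378 in naive and 2375.5 in memory cells. The members of this last sum did not move together. In control, Rap and TOFA effector cells Ifng read 4108, 980 and 2301, and Gzmb 28440, 26476 and 13979. Il2ra read 4765, 8999 and 7160, Tbx21 2036, 2967 and 2402, and Mki67 14779.5, 15835 and 13229.5. In such bulk samples fewer cells of a type and less RNA per cell cannot be told apart.

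Other genes of translation and its control could be measured for 40 of 43 entries. They came from fixed lists of genes around eIF2 phosphorylation, eIF4F regulators, and accessory, elongation, termination and mitochondrial factors. In TOFA against control effector cells, 7 of 40 lay above control by 1.5-fold or more, against 8.58% of all genes, and 0 lay that far below, against 8.15%, and 4 of the 7 came from the 8 genes around eIF2 phosphorylation. These were Atf4, the transcription factor translated when eIF2 is phosphorylated (12163 against 4159, 2.92-fold), its target Ddit3 (4472 against 1572, 2.85-fold), the interferon-induced kinase gene Eif2ak2 (1.61-fold) and Ppp1r15a, a phosphatase subunit that reverses the phosphorylation (1.56-fold). The rest were Eef2k, the kinase of elongation factor eEF2 (1.56-fold), the release factor gene Gspt2 (1.66-fold) and Mcts2 (1.63-fold). In Rap against control cells 2 were higher, Paip1 (1.52-fold) and Mcts2 (1.62-fold), against 7.71% of all genes. Lower were 2, Eif4ebp1 (1.96-fold) and the kinase gene Eif2ak4 (1.55-fold), against 10.9%.

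Eif4ebp1, the gene of an eIF4E-binding repressor that mTOR inactivates, had the largest difference on these lists. It read 416 in naive, 1220 in memory, 5845 in control effector, 2989 in Rap and 7475 in TOFA cells, so that each effector array was above both resting ones. In control effector against naive cells 8 of 40 listed genes lay 1.5-fold or more above, against 26.2% of all genes, and 7 below, against 22.2%, with Eif4ebp1 14-fold higher and Pdcd4, an inhibitor of eIF4A, 2.70-fold lower (6032 against 16289). The helicase gene Ddx3x was 2.02-fold lower (7276 against 14683). For memory against naive cells 5 were higher and 1 lower, against 19.2% and 14.2% of all genes. For memory against control effector it was 5 and 5, against 23.7% and 24.6%, and for TOFA against Rap 6 and 0, against 9.79% and 6.16%.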

How the data were processed

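The submitters' processing notes name GCOS and Affymetrix Expression Console, without a version, and the summary algorithm is not stated in them. Values as deposited are an intensity per probe set on a linear scale, which the authors had scaled, since the mean after trimming 2% from each end was 500 on every array. Since the medians of the arrays lay up to 0.658 apart (log2), above the limit of 0.5 set for this, the arrays, after 64 control probe sets had been left out, were quantile normalized. The 40th percentile (43.4) served as floor for lower signals, and a gene under it in both arrays of a comparison was not compared. The platform's 2016 annotation gave 1 symbol to 34945 probe sets, several to 932 and none to 9160; all 41 genes matched RefSeq by Entrez identifier with 0 symbols updated. Differences are of log2 signals on the brightest probe set of each gene, at 2-fold and 1.5-fold, and precision is limited by there being 5 arrays. Well-measured genes are those at or above the 60th percentile (a signal of 150) in either array.

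The rule named genes that were 2-fold apart in a comparison, the 3 furthest each way past 1.5-fold, the brightest of each role and the paralog groups; other members were named after their values were seen, to account for each complex. The members, lists and rules were chosen with earlier results of these data known. The steps were tested on simulated arrays with known folds. Alternatives were the deposited signals, a lower floor (20th percentile) and a higher one (60th), averaging the probe sets of a gene, leaving out _x_at and _s_at probe sets, and an added constant. Python 3.11.15, numpy 2.4.6 and pandas 2.3.3 were used.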

Additional observations from a re-analysis of the deposited data

How the results depend on the processing

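The counts of genes with all effector arrays above (21 to 28) or below (2 to 4) both resting arrays stayed within 1.5 times under all 6 alternatives. The median over the initiation factors for control effector against naive was 0.36, 0.19 with the mean of all probe sets and 0.46 with the deposited signals. For memory against control effector it was -0.34, -0.30 and -0.50. With the deposited signals, genes 2-fold apart numbered 5 for control effector against naive and 7 for memory against control effector, and 0 were 1.5-fold higher in the latter. With the mean of all probe sets, control effector against naive had 5 genes 2-fold apart and 4 that were 1.5-fold lower, TOFA against control had 3 that were 1.5-fold higher, Rap against control 0 lower, memory against naive 1 lower (also its only 2-fold gene), and memory against control effector 1 higher. There Eif4g3 turned to -0.05. Leaving out _x_at and _s_at probe sets gave 2 genes higher in TOFA against control, Eif2b3 and Eif3c. That alternative compared 37 genes, since Eif5a and Eif3m had only probe sets of these types. A floor at the 20th percentile let in Eif4a3, which made 1 gene lower in TOFA and 2 in Rap against control, and an added constant left 1 higher in memory against control effector. Of single called genes, 19 of 208 recomputed values fell under 1.5-fold in the same direction and 1 turned, mostly with the mean of all probe sets, such as Eif1ax (0.00) and Eif4e2 (0.09) in control effector against naive. The comparison counts of 2-fold genes and of separated arrays under these alternatives were added after seeing the data. No paired analysis was possible because each group had 1 array. Without replicates no difference can be set against the spread between cultures.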
